A study of Mus musculus with 4 samples.

Results

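The genes of the type I interferon receptor complex were described here: the receptor subunits Ifnar1 and Ifnar2, the receptor-associated kinases Jak1 and Tyk2, and the signalling inhibitor Socs1. They were found by position, as the loci with a transcript ID that overlap the mm9 positions of these 5 genes, which gave 6 of the 17576 loci of the deposited table. The positions use no measured value, but the genes were chosen with earlier results of these data known. The study profiled polyA RNA from mouse embryonic fibroblasts (MEFs) of strain C57BL/6, taken from mice that carry the H3.3-HA knock-in, an allele that puts a cDNA of tagged histone H3.3 in place of the H3f3b gene. All groups share this allele, so no value here is from a wild-type genotype. The 4 samples cross pretreatment with interferon-beta (naive or pretreated) and stimulation (0 h or 1 h, at 100 U/ml), with 1 library in each group. The duration of the pretreatment, any washout after it and the number of embryos behind the cultures are not in the labels. Values were available for the naive 1 h and the pretreated 1 h libraries, and the 0 h libraries were not analysed here. A difference between these 2 libraries therefore sets pretreated against naive cells at 1 h and is not the response to 1 h of interferon. With 1 library per group no value has a replicate error, no difference has a replicate check, and no test across samples was possible.

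Type I interferons such as interferon-beta bind a receptor of one IFNAR1 and one IFNAR2 chain. The kinase TYK2 sits on IFNAR1 and JAK1 on IFNAR2, and on ligand binding they phosphorylate transcription factors of the STAT family. STAT2 acts with IRF9 in the complex ISGF3, which binds the interferon-stimulated response element (ISRE) in the promoters of antiviral genes, while STAT dimers bind the gamma-activated sequence (GAS). The pathway is restrained by genes that it induces itself: SOCS1 binds and inhibits the kinases, and USP18 binds IFNAR2 and blocks signalling there.

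Promoter sequences are shown because Socs1 holds the ISRE core letters and each receptor subunit gene carries the GAS letters. Isg15, an interferon-stimulated gene whose value was higher in pretreated cells, is shown beside Socs1 because it holds the ISRE core too. The sequences are those of RefSeq for GRCm38.p6, written 5′ to 3′ on the strand of the gene, from 250 bases before to 50 bases after the annotated start. Their coordinates belong to GRCm38.p6, while all locus positions further on are in mm9. Capitals mark matches to the ISRE core (GAAA, any 2 bases, GAAA) or to the GAS (TTCNNNGAA), searched on both strands.
Socs1 (chr16:10785487-10785786, - strand): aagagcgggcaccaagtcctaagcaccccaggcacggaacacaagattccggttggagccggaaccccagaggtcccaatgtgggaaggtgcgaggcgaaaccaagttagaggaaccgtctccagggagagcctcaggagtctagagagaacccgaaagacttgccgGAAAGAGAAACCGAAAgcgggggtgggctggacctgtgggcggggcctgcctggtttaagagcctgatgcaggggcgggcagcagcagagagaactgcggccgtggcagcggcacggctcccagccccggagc
Isg15 (chr4:156200769-156201068, - strand): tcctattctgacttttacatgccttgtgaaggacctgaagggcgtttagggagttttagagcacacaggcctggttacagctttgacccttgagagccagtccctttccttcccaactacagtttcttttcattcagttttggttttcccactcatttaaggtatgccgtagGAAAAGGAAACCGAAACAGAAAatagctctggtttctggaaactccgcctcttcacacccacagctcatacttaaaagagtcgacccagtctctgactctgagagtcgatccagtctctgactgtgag
Ifnar1 (chr16:91484965-91485264, + strand): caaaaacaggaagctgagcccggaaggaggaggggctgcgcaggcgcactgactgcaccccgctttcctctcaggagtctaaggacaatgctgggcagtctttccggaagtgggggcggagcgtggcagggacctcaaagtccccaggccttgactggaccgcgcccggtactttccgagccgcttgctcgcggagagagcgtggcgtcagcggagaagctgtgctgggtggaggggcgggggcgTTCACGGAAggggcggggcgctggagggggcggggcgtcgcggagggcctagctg
Ifnar2 (chr16:91372533-91372832, + strand): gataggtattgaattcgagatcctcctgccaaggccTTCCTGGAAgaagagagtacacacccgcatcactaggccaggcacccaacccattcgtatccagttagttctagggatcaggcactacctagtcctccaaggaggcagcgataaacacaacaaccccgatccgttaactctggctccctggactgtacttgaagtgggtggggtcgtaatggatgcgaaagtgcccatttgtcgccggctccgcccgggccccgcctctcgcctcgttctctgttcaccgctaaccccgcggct

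A promoter entry was found for all 5 genes. The Socs1 window held 2 overlapping ISRE cores, starting 83 and 77 bases before the annotated start. Isg15, which encodes a ubiquitin-like protein, held 3 overlapping cores, starting 78, 72 and 66 bases before its start, and its second core had the same letters as the second of Socs1, GAAACCGAAA. By the search pattern, cores can differ only at the 2 free bases. An ISRE core was found in 3.44% of 32851 mouse promoter windows of this length. The GAS letters began 5 bases before the start in Ifnar1, so that they span it, and 214 bases before it in Ifnar2, and 8.30% of all windows held them. Neither set of letters was found in the windows of Jak1 and Tyk2. These matches describe letters and not occupied sites.

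The values were FPKM, fragments scaled by transcript length and by library depth. Levels of different genes are compared per length here, which rests on treating the values as RNA-seq, while the sample descriptions name scTSS-seq. FPKM hides the number of fragments, so this number was read from loci with a value of 0 in one of the libraries. There the p-value of the authors' deposited table was read as a number of fragments in the other library. Only loci where this reading came close to a whole number, of at most 6 fragments, were kept. Among the kept loci of 600 to 3000 bp, 41 of 87 in the naive and 25 of 69 in the pretreated library lay near a straight line. These shares are fitted and are not an independent check, because the line was placed to have the most loci near it. The line was of fragments per FPKM against span, and near means within 0.5%. Among lines through pairs of loci, the one with the most loci near it was taken and refitted to those loci. Its slope corresponded to a depth of about 36300000 fragments in the naive and 17900000 in the pretreated library, 0.493 of the naive depth, with a length of 211 bp subtracted in both. The cells were checked against markers. The 3 fibroblast collagens Col1a1, Col1a2 and Col3a1 summed to 3887 FPKM in the naive and 1526 FPKM in the pretreated library, and all 3 were lower in pretreated cells (FPKM ratios of 0.358, 0.562 and 0.622). The endothelial marker Pecam1 had 0.0629 and 0.0204 FPKM. No locus with a transcript ID lay at the positions used for the leukocyte marker Ptprc or the epithelial marker Epcam, and loci without an ID were not searched. The part of the lower collagen values in the results that follow was not tested.

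**Figure D1:**
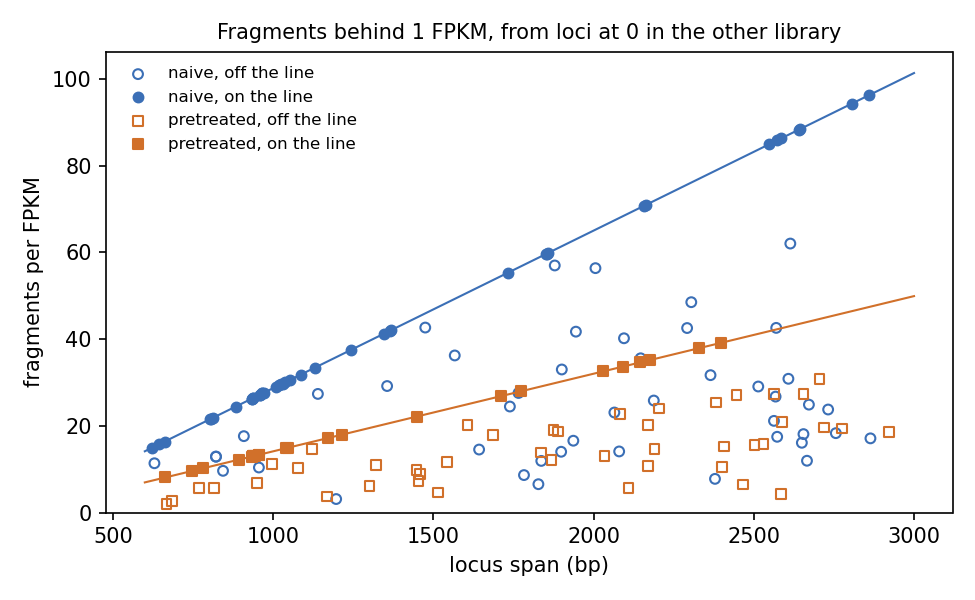
Fragments per FPKM (vertical axis) against locus span in bp (horizontal axis) for loci listed at 0 in the other library, with circles for naive and squares for pretreated cells at 1 h. Filled points lie within 0.5% of the fitted lines, whose slopes correspond to depths of about 36300000 and 17900000 fragments. Open points lie below the lines.

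Transcripts of one receptor chain and one kinase were lower in pretreated cells, and those of their partners were close to their naive level. Ifnar1 and Jak1 had 0.586 and 0.614 times their naive FPKM, whereas Ifnar2 and Tyk2 had 1.05 and 1.13 times theirs. Socs1, which was low in both libraries, had 0.338 times its naive FPKM. In bulk RNA, fewer expressing cells and less RNA per cell cannot be told apart. On the scale of log2(FPKM + 1), on which changes of low genes are understated, 4 of the 6 loci reached the minimum mean of 1 FPKM: Ifnar1, Ifnar2, Jak1 and Tyk2. A 2-fold difference was reached by 0 of the 4 on the higher side and by 0 on the lower side. Over all 10228 loci compared it was reached by 2.83% on the higher and 7.12% on the lower side, so the counts of 0 lie near the background. The median change of the 4 was -0.30, with 2 lower and 2 higher, and that of all loci compared was -0.16.

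**Figure D2:**
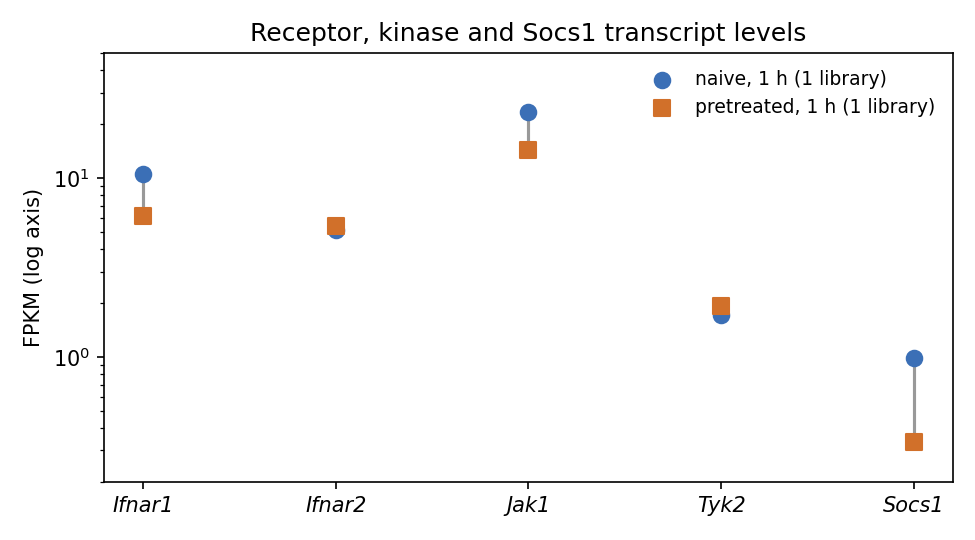
FPKM of each gene (vertical log axis) in the naive (circles) and pretreated (squares) library at 1 h, 1 library each. Jak1 is highest and Socs1 lowest in both libraries, and the gap between the symbols is visible for Ifnar1, Jak1 and Socs1 but small for Ifnar2 and Tyk2.

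Among the receptor chains, Ifnar1 (locus XLOC_009894, 3 transcript IDs, chromosome 16, 91485460 to 91510868, plus strand) had 10.5 FPKM in the naive and 6.17 FPKM in the pretreated library. IFNAR1 is the chain that holds TYK2. The value was thus lower after pretreatment, with a log2 change of -0.69, and 15.7% of all loci compared had a lower change. In the authors' deposited table it was called lower, with a q-value of 0.0303. That q-value compares the reads of these 2 libraries and not the conditions. If the longest protein-coding transcript of the GENCODE annotation (3909 bp) is taken as its length, about 1415 and 408 fragments lay behind the values, and the FPKM ratio of 0.586 has a 95% counting interval of 0.523 to 0.654 (exact binomial). These intervals cover counting error only, not variation between cultures.

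Ifnar2 (XLOC_009891, 3 transcript IDs, chromosome 16, 91373028 to 91405832, plus strand) had 5.13 FPKM in the naive and 5.38 FPKM in the pretreated library. IFNAR2 is the chain that holds JAK1, and it is also made in a soluble form; the table gives 1 value per locus, so the forms were not separated. The values nearly coincided, with a log2 change of 0.06. The FPKM ratio of 1.05 has a counting interval of 0.903 to 1.22, from about 529 and 273 fragments. In the authors' deposited table the locus was not called (q-value 0.922). Its counting interval does not overlap that of Ifnar1, but the 2 genes were not tested against each other. The authors' test gave Ifnar1 a p-value of 0.00363, weaker than so narrow a counting interval would imply. The intervals thus leave out error that the authors' test includes, and they do not establish a difference between the chains. Per length, the Ifnar1 value exceeded that of Ifnar2 by 2.05 times in the naive and by 1.15 times in the pretreated library. These are RNA values, and the balance of the receptor proteins was not measured.

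Ifnar1 and Ifnar2 lie in a cluster of cytokine receptor genes that spans 191225 bp of chromosome 16, from 91373028 to 91564252, in the order Ifnar2, Il10rb, Ifnar1 and Ifngr2. Il10rb encodes a chain shared by receptors of the interleukin-10 and interferon-lambda families and had 11.0 FPKM in the naive and 7.87 FPKM in the pretreated library. Ifngr2 encodes a chain of the interferon-gamma receptor and had 13.1 FPKM in the naive and 10.8 FPKM in the pretreated library. The FPKM ratios of the 4 neighbours ran from 0.586 at Ifnar1 to 1.05 at Ifnar2. Of the 4, the authors' deposited table called 1 lower, Ifnar1, while it called 11.9% of all 13388 tested loci lower.

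Jak1 was the most abundant of the 5 transcripts. The kinase serves many cytokine receptors besides IFNAR2. Its position on chromosome 4, from 100741643 to 100937887, was shared by 2 rows of the table, because the deposited locus joins neighbouring genes: its span of 196245 bp equals the joint RefSeq span of Jak1 and Raver2, while Jak1 alone spans 113309 bp there. The rows carry no strand. Locus numbers run in a plus-strand and a minus-strand block on each chromosome. The border between the blocks was placed to best match the annotated strand at 2866 loci matched to 1 RefSeq gene by exact span. The numbering then gave the annotated strand at 2747 of these same loci (95.8%), which is a fitted share and not an independent check. By this numbering, XLOC_018838 (transcript uc008tvk.1) lies on the minus strand, as Jak1 does. XLOC_017930 (2 transcript IDs) lies on the plus strand, as Raver2, an RNA-binding protein gene, does.

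The Jak1 row had 23.3 FPKM in the naive and 14.3 FPKM in the pretreated library. It was lower after pretreatment by nearly the same proportion as Ifnar1, with a log2 change of -0.67, and 16.6% of all loci compared had a lower change. The FPKM ratio of 0.614 has a counting interval of 0.575 to 0.655, from about 3976 and 1202 fragments at a length of 4906 bp. In the authors' deposited table Jak1 was called lower, with a q-value of 3.35e-04. The Raver2 row had 0.0729 and 0.0361 FPKM, was left untested by the authors and stayed under the minimum level.

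Tyk2 (XLOC_027657, 3 transcript IDs, chromosome 9, 20908512 to 20935719, minus strand) had 1.72 FPKM in the naive and 1.94 FPKM in the pretreated library. TYK2 is the partner kinase of JAK1 on this receptor. The values were close, with a log2 change of 0.11, and Tyk2 was not called in the authors' deposited table (q-value 0.705). The FPKM ratio of 1.13 has a counting interval of 0.922 to 1.37, from about 288 and 160 fragments. Jak1 exceeded Tyk2 by 13.6 times per length in naive and by 7.39 times in pretreated cells.

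Of the 5 loci that the authors tested (Ifnar1, Ifnar2, Jak1, Tyk2 and Socs1), their deposited table thus called 2 lower and 0 higher, while it called 11.9% of all 13388 tested loci lower and 3.91% higher. The order of the levels was the same in both libraries: Jak1, Ifnar1, Ifnar2, Tyk2 and Socs1. In pretreated cells Ifnar1 and Ifnar2 differed by 1.15 times, which cannot be set against a replicate spread. Among loci with a transcript ID, Jak1 had a higher level than 86.7% in naive and 83.0% in pretreated cells, and Tyk2 a higher level than 49.8% and 53.5%.

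Socs1 (XLOC_009962, transcript uc007yed.1, chromosome 16, 10783902 to 10785629, minus strand) had 0.983 FPKM in the naive and 0.333 FPKM in the pretreated library. SOCS1 is the feedback inhibitor that binds the activated kinases. Its mean stayed under 1 FPKM, so it was not among the loci compared; without that minimum and with 0.1 in place of 1 added to each FPKM, it was the 1 locus of the 6 at least 2-fold lower, beside 12.7% of all 17552 loci. The locus span of 1728 bp less 509 bp, the largest intron length among its protein-coding GENCODE transcripts, leaves 1219 bp. Taking the largest intron length was a choice made for Socs1 alone. At 1219 bp the values correspond to 36 fragments in the naive and 6 in the pretreated library. The FPKM ratio of 0.338 has a counting interval of 0.117 to 0.811, the widest of the 5 genes. In the authors' deposited table Socs1 was not called (p-value 0.0454, q-value 0.165). A promoter entry was found for 9 of the 11 genes of the pathway list described further on. Usp18, which was called higher, and Il10rb had no entry and were not searched. Of the genes found to hold the ISRE core, Isg15 (3 cores) and Stat2 (1 core, 222 bases before the start) were called higher in the authors' deposited table. Socs1 (2 cores) was not. Irf9, with 0 cores in its windows, was called higher too.

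**Figure D3:**
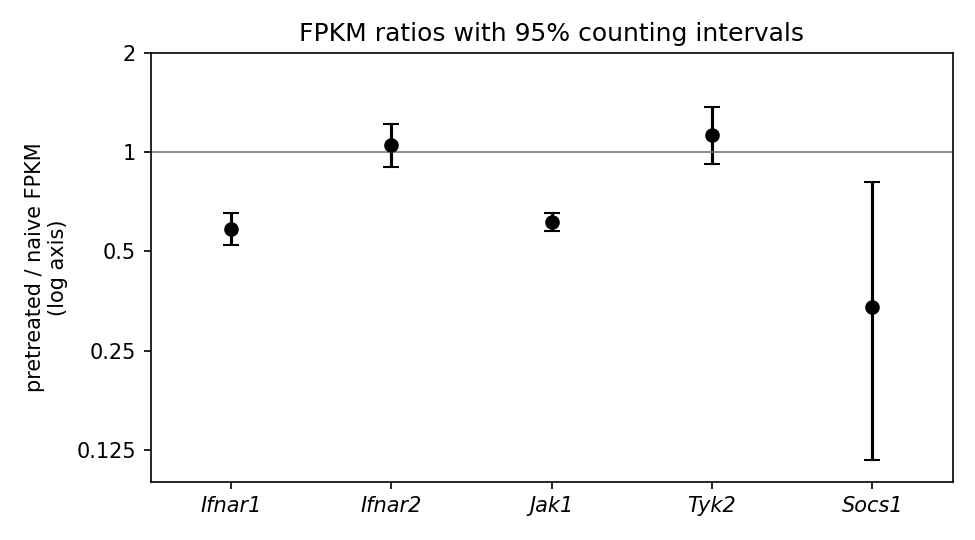
Ratio of pretreated to naive FPKM at 1 h (vertical log axis) for the 5 genes, with 95% intervals that cover counting error only. The intervals of Ifnar1, Jak1 and Socs1 lie under 1, and those of Ifnar2 and Tyk2 include 1.

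Other genes of the pathway were taken from a list, and 9 of the 11 described here could be matched to a locus: receptor chains (Ifngr1, Ifngr2, Il10rb), the kinase Jak2, the transcription factors Stat2, Stat3 and Irf9, the inhibitor Usp18 and the target Isg15. All 9 reached the minimum level. A 2-fold difference was reached by 2 (Usp18 and Isg15) on the higher and by 0 on the lower side, beside 2.83% and 7.12% of all loci compared. The authors' deposited table called 4 of the 9 higher and 0 lower, beside 3.91% and 11.9% of the 13388 loci tested there. The median change of the 9 was -0.26, with 4 higher and 5 lower, beside -0.16 over all loci compared, of which 3803 were higher and 6425 lower. The position set for Socs3, another inhibitor, held a locus whose span did not match, and it is not in these counts. That locus was 12.1-fold lower in pretreated cells and was called lower, so both counts of 0 lower rest on leaving it out.

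The 4 higher genes were Stat2, Irf9, Usp18 and Isg15. Stat2 had 31.5 FPKM in the naive and 55.4 FPKM in the pretreated library, and Irf9, its DNA-binding partner, had 30.8 and 58.2 FPKM. These ratios of 1.76 and 1.89 lay under 2-fold, and both were called higher in the authors' deposited table. The inhibitor Usp18 had 184 FPKM in the naive and 1034 FPKM in the pretreated library, 5.63-fold higher, and Isg15 had 4.49 and 112 FPKM, 24.9-fold higher.

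The other 5 matched genes, receptor chains and signal transducers, had lower values in the pretreated library, as most loci did, and 0 of the 5 reached 2-fold. Ifngr1, the ligand-binding chain of the interferon-gamma receptor, had 21.1 and 15.7 FPKM. Jak2, the kinase that acts with JAK1 on that receptor, had 3.87 and 2.35 FPKM, a ratio of 0.606 that is close to those of Ifnar1 and Jak1. Stat3, a transducer of interleukin-6 family signals, had 19.1 and 14.6 FPKM. None of Ifngr1, Ifngr2, Il10rb, Jak2 and Stat3 was called in the authors' deposited table, where their q-values ran from 0.182 for Jak2 to 0.549 for Ifngr2. For Ifnb1, the gene of interferon-beta itself, no locus with a transcript ID lay at the position used.

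**Figure D4:**
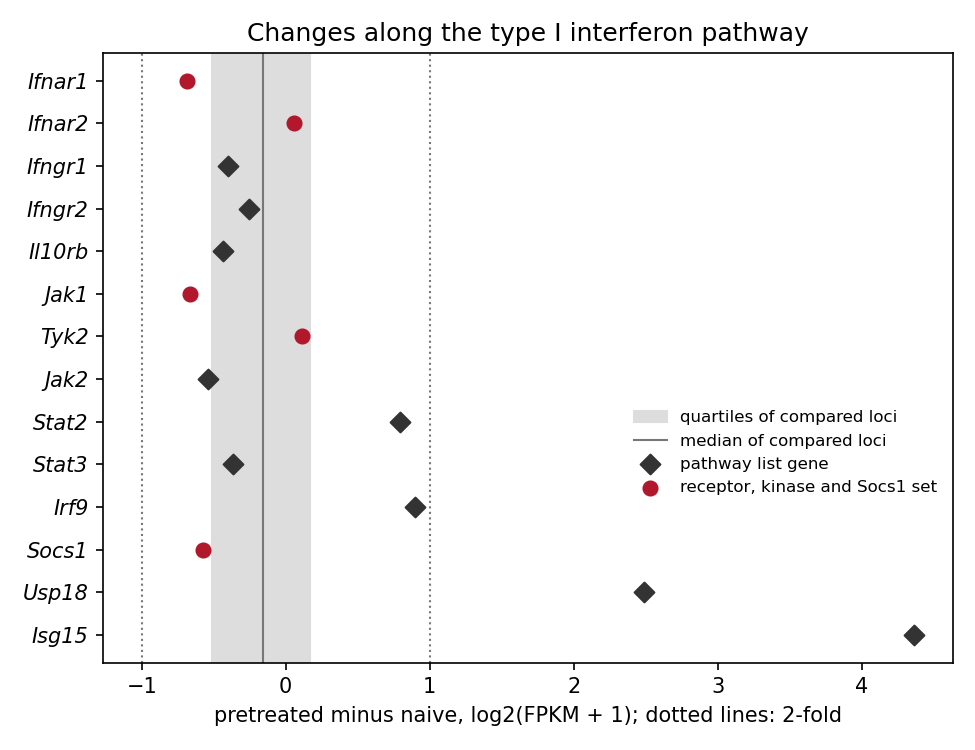
Change from naive to pretreated cells at 1 h on the log2(FPKM + 1) scale (horizontal axis) for the receptor, kinase and Socs1 set (circles) and genes of the pathway list (diamonds). The grey band spans the quartiles of the 10228 loci compared (-0.51 to 0.17) around their median of -0.16. Isg15 and Usp18 lie beyond the 2-fold line, and Ifnar1, Jak1 and Jak2 lie just below the band. Socs1 also plots just below the band, but it stayed under the minimum level and is not among the loci compared. Its low values are compressed on this scale.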

How the data were processed

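The authors deposited 1 table comparing the pretreated with the naive 1 h library, with an FPKM value per locus and library, a p-value, a q-value, a log2 fold change and a call that corresponds to a q-value under 0.05. TopHat and Cufflinks 1.2.1 and the build mm9 are named in the submitters' processing notes; the annotation, filters and scaling are not given in the sources used here. The series title names RNA-seq and the sample descriptions scTSS-seq; the values were treated as RNA-seq. Value columns were matched to libraries by the sample names beside them. Deposited starts were raised by 1.

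Changes were differences of log2(FPKM + 1), for loci with a mean of at least 1 FPKM, without 24 loci of status FAIL or HIDATA. All genes of the set and of the pathway list were named, except 1 list gene that is not reported here and is left out of every count of the list. The positions of list and marker genes were set from knowledge of mm9, and a locus took the symbol when its span was within 10% of that gene's RefSeq span. The genes and lists were chosen with earlier results of these data known. Fragment numbers were derived from the deposited p-values and GENCODE transcript lengths, a step chosen after seeing the data. For each gene, the interval of the ratio came from the exact binomial interval (95%) of the rounded fragments. Python 3.11.15, pandas 2.3.3, scipy 1.17.1 and matplotlib 3.10.9 were used. Alternatives were another pseudocount (0.1), no filter or a minimum of 5 FPKM, a 4-fold threshold, centring on the median and the authors' calls.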

Additional observations from a re-analysis of the deposited data

How the results depend on the processing

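Leaving out replicates could not be done. No paired analysis was possible because there is a single library for each group. Of the 4 counts reported, under the 8 alternatives tried, those of higher receptor-set loci and of lower pathway genes stayed at 0. Taking the authors' calls in place of 2-fold gave 2 lower loci of the receptor set (Ifnar1 and Jak1), against 0, and 4 higher pathway genes (Stat2 and Irf9 joined), against 2. Of all 13388 loci tested there, 11.9% were called lower and 3.91% higher. A pseudocount of 0.1 joined with no filter, added after seeing the data, gave 1 lower locus of the set, Socs1, at a log2 change of -1.32 against -0.57, since its low values are compressed by a pseudocount of 1. At that setting 12.7% of all loci were at least 2-fold lower. Centring on the median moved Ifnar1 to -0.53, Jak1 to -0.51, Ifnar2 to 0.22 and Tyk2 to 0.27, and gave 3 higher pathway genes. The share of all loci that were 2-fold higher after centring was not computed, so this count has no background beside it. Signs of the 5 genes did not change under the pseudocounts and centrings tried. Depth limits Socs1 most, with 6 fragments in the pretreated library.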

Other observations

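The locus XLOC_004838 on chromosome 11, from 117827401 to 117830680, lies at the position set for Socs3, the relative of Socs1 that inhibits JAK kinases at receptors of the interleukin-6 family. It was left out of the list counts because its span of 3280 bp is 77.0% of the RefSeq span of Socs3 (4258 bp), and it is described here after its values were seen. It had 8.10 FPKM in the naive and 0.667 FPKM in the pretreated library, 12.1-fold lower. With a length of 2724 bp, its span less the 556 bp intron of the main GENCODE Socs3 transcript, these values correspond to 740 and 30 fragments, and the FPKM ratio of 0.0823 has a 95% counting interval of 0.0551 to 0.119 (exact binomial). The authors' deposited table called it lower, with a q-value of 8.32e-12, and 0.899% of all loci compared had a lower change. The RefSeq promoter window of Socs3 held the GAS letters 154 bases before the start and no ISRE core.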
